A study of Mus musculus with 18 samples.

Results

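The genes that copy DNA and the genes that divide the cell were followed through 9 groups of mouse embryonic stem cell derivatives on the way to heart muscle. The set was given as a list of 48 genes, 22 of DNA replication and 26 of mitosis. A gene was represented by its brightest probe set, and 47 of the 48 had one (22 replication and 25 mitosis genes, among 18193 genes with a probe set). All 47 passed the filter on dim genes that left 13379 genes for testing. The signal of Ccnb1, the cyclin B1 gene, was not analysed here, and this gene entered only the promoter counts.

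The cells were of the mouse embryonic stem cell line D3, grown into embryoid bodies (aggregates formed here in hanging droplets) with ascorbic acid in the medium. In the sorted groups a transgene placed GFP behind an Nkx2-5 enhancer and the Hsp68 minimal promoter, so GFP marked cells using that heart enhancer, and GFP-positive and GFP-negative cells were separated on days 5, 6, 7 and 8. The remaining group came from another stable clone, in which the alpha myosin heavy chain promoter drove neomycin resistance, and its cardiomyocytes were selected with G418. Each group had 2 arrays. The sorted groups had 1 array from each of 2 batches, whereas the labels give the selected cardiomyocytes no batch and no day, so clone, selection and age differ together from the sorted cells. Feeder fibroblasts, which had been treated with mitomycin C, were removed before differentiation began.

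In a dividing cell, origins of replication are licensed when Cdc6 and Cdt1 load the ring-shaped MCM helicase, which Cdc45 and the GINS complex then switch on. Primase with polymerase alpha starts new strands, the clamp PCNA holds the polymerases on DNA, and ribonucleotide reductase supplies the building blocks. Mitosis then uses the cyclin-dependent kinase Cdk1, the Aurora and Polo kinases, a checkpoint that waits for spindle attachment, and motors that pull the chromosomes apart. E2F factors are known for driving replication genes in late G1, and the DREAM and MuvB complexes for acting on mitosis genes through an element called CHR, often beside CCAAT boxes. Heart muscle cells of the embryo divide, and they leave the cell cycle around birth.

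Signals were MAS5 intensities scaled to a common trimmed mean, and the median signal of an array ran from 18.2 to 29.3. It was highest on the day 8 GFP-positive arrays, at 29.3 and 29.0. Arrays of a group correlated with r between 0.954 and 0.977 across genes, which are not independent replicates. Gapdh probes near the 3' and 5' ends, whose ratio is a sign of RNA quality, gave ratios between 1.13 and 1.64. These ratios moved with the comparisons in part. In batch 1 the 4 arrays of days 7 and 8 (1.46 to 1.64) were above the 4 of days 5 and 6 (1.13 to 1.24), in batch 2 late (1.28 to 1.37) and early arrays (1.21 to 1.57) overlapped, and the cardiomyocytes gave 1.62 and 1.58. Their part in the results was not tested. Of the 47 members, 46 were at or above a signal of 22.5, the median of all deposited values, on every array. The exception was Tyms, whose probe set ran from 5.4 to 44.4. Differences are given on the scale of log2(signal + 6.8) with the standard error (SE) of a limma fit, n = 2 arrays a group, and a gene is said to have risen or fallen where the adjusted p was under 0.05. Whether the paired arrays are separate cultures is not in the labels, so these p-values may measure technical spread only. Because RNA was taken from many cells together, fewer cycling cells and less RNA per cell cannot be told apart.

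The promoters of the members show the elements that set replication and mitosis genes apart, and 8 are printed for that reason. RefSeq windows on GRCm38.p6, reaching from 250 bases before the annotated start to 50 after it, matched 40 of the 48 listed genes (18 replication, 22 mitosis). The letters searched on both strands were TTTCCCGC, TTTCGCGC, TTTGCCGC and TTTGGCGC for E2F, TTTGAA for CHR and CCAAT for the CCAAT box. Matches of different elements overlapped at 1 place in all member windows. In the sequences below, the first 280 bases of each window are given 5′ to 3′ on the strand of the gene, and capitals mark every match. The replication genes shown are Mcm5 (chr8:75109259-75109538, plus strand), Mcm6 (chr1:128359676-128359955, minus strand), Rfc3 (chr5:151651179-151651458, minus strand) and Rrm2 (chr12:24708004-24708283, plus strand). The mitosis genes are Ccnb2 (chr9:70421525-70421804, minus strand), Cdk1 (chr10:69352883-69353162, minus strand), Cenpf (chr1:189688057-189688336, minus strand) and Birc5 (chr11:117848987-117849266, plus strand).
Mcm5: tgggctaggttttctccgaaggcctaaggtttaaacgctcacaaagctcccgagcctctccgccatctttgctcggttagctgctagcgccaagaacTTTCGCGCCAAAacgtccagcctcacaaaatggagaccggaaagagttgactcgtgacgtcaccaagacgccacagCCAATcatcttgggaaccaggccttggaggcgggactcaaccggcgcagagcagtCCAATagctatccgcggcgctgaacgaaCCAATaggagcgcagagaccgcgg
Mcm6: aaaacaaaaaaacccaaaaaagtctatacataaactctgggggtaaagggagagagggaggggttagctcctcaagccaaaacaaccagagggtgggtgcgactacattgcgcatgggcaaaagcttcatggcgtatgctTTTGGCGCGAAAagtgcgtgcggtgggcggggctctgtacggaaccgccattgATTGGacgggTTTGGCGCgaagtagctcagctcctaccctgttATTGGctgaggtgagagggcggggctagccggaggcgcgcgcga
Rfc3: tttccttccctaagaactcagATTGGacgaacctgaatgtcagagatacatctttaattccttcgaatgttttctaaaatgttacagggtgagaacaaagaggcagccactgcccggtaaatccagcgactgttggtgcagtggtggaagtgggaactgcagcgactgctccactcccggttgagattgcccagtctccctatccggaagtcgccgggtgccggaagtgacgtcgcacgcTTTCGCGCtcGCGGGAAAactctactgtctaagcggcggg
Rrm2: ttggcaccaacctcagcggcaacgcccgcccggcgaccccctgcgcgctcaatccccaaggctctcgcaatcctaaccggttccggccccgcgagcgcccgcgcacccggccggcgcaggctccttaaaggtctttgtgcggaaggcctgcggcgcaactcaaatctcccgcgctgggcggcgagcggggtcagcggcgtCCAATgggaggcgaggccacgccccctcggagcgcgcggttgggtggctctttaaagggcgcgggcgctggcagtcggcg
Ccnb2: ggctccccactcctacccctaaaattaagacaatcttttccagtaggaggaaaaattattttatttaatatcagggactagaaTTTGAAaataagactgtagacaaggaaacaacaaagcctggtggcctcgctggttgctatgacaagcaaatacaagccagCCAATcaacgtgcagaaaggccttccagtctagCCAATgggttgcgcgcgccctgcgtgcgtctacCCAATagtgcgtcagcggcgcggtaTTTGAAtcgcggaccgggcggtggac
Cdk1: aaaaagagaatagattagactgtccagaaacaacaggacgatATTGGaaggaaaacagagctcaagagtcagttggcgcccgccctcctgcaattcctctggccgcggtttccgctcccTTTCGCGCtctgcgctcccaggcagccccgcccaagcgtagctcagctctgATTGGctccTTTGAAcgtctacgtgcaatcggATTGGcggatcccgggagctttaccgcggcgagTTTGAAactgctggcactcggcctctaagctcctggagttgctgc
Cenpf: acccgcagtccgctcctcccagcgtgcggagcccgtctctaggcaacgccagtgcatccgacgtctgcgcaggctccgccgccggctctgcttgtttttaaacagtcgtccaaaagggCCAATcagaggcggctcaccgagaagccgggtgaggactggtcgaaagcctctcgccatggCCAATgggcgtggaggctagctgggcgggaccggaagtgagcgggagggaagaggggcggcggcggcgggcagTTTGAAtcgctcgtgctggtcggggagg
Birc5: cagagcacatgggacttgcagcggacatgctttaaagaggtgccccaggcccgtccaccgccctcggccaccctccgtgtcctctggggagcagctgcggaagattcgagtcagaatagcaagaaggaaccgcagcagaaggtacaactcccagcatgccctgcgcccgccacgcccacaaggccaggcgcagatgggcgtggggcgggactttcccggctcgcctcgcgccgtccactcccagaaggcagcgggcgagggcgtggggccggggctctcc
These windows show which words each gene held. Mcm5 held 2 E2F matches, on opposite strands of an overlapping stretch, and 3 CCAAT boxes. Mcm6 held 3 E2F matches and Rfc3 held 2. Rrm2, the replication gene with the largest fall over the days on the probe sets used, had a CCAAT box and neither of the other words. Ccnb2 and Cdk1 each held 2 CHR matches and 3 CCAAT boxes, and Cdk1 also held 1 E2F word. Cenpf held a CHR match just after the annotated start, with 2 CCAAT boxes upstream. Birc5, the 1 member that passed between the sorted fractions on day 8, had no match to any of these words in its window.

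Over all windows, an E2F word stood in 8 of 18 replication genes (44.4%) and in 1 of 22 mitosis genes (4.55%), against 2.32% of the 27025 genes in the RefSeq table. The CHR word ran the other way. It stood in 3 of 18 replication genes (16.7%) and 16 of 22 mitosis genes (72.7%), against 18.1% of all genes. CCAAT boxes were frequent in both, in 12 replication genes (66.7%) and 17 mitosis genes (77.3%), against 37.9%. A CHR word together with a CCAAT box was found in 2 replication genes (11.1%) and 14 mitosis genes (63.6%), against 7.12%. These are counts of letters in a window, not of bound sites.

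Between days 5 and 6 and days 7 and 8 most replication genes and some mitosis genes fell. With both fractions together (8 arrays against 8), 17 of 22 replication genes and 8 of 25 mitosis genes fell, where 13.2% of all tested genes fell. The median difference was -0.41 for replication genes, -0.23 for mitosis genes and 0.05 for all genes. The counts depended on the scaling, since with array medians made equal 21 of 22 replication and 21 of 25 mitosis genes fell, and the median of all genes moved to -0.20. The 13.2% is for the signals as deposited, and the share of all genes with equal medians is not given here. Tyms, thymidylate synthase, was the 1 member that rose, at 0.47 ± 0.15 (adjusted p = 0.0304), where 17.1% of all genes rose. Its probe set was dim, and with equal array medians it was at 0.25 and did not pass.

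The heat map gives all members on all arrays.

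**Figure D1:**
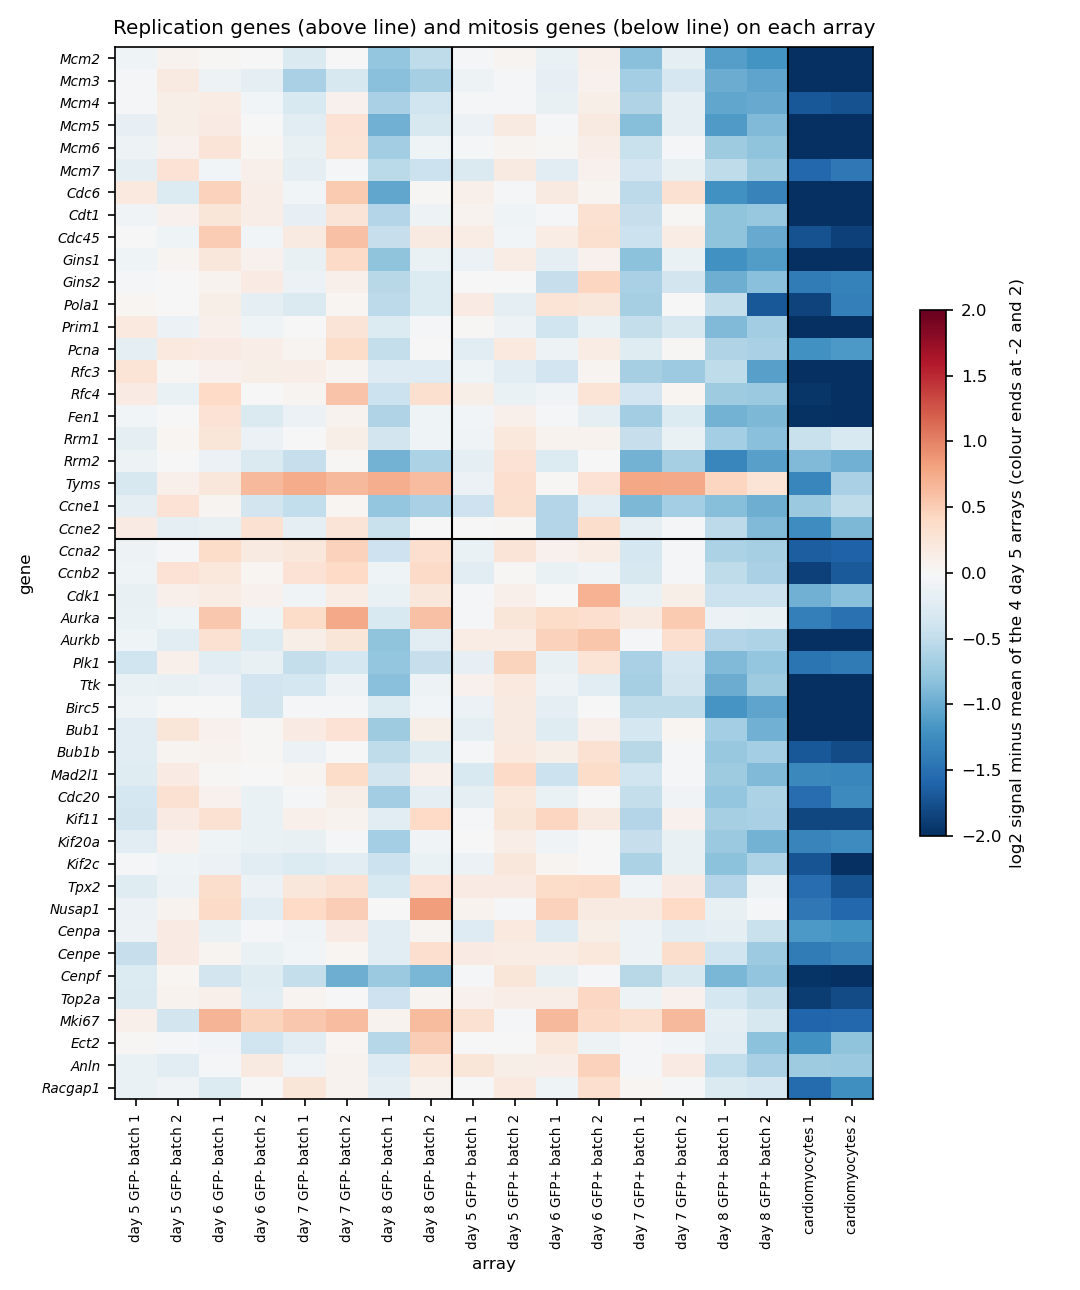
Log2 signal of each of the 47 measured genes (rows) on each of the 18 arrays (columns), as the difference from the mean of that gene on the 4 day 5 arrays, with blue lower and red higher. Horizontal and vertical lines separate replication from mitosis genes and GFP-negative, GFP-positive and selected cells. The blue of days 7 and 8 is deepest in the GFP-positive columns of day 8, where 46 of 47 genes lay below their day 5 mean on each array, and in the cardiomyocyte columns, where 47 of 47 did.

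All 6 MCM helicase genes fell, by 0.36 to 0.65. In GFP-negative cells Mcm3 read 2189.5 and 2549 on day 5 (batch 1 and batch 2), 2098 and 1980 on day 6, 1427.5 and 1800.4 on day 7, and 1253 and 1423 on day 8. In GFP-positive cells the same gene read 2093 and 2191 on day 5, 2006 and 2393 on day 6, 1403 and 1789 on day 7, and 1128 and 1078 on day 8. Every late array was below every early array in both fractions, and the difference was -0.65 ± 0.08 (adjusted p = 5.29e-04). Mcm2 (-0.61 ± 0.10), Mcm5 (-0.57 ± 0.13) and Mcm4 (-0.52 ± 0.09) followed. On the probe sets used, Mcm7 was the smallest of the family at -0.36 ± 0.10. This order depends on the probe set, since other Mcm7 sets were at -0.66, -0.69 and -0.85 and another Mcm3 set at -0.89.

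The loaders of the helicase fell with it. Cdc6 was at -0.52 ± 0.17 and Cdt1 at -0.40 ± 0.10. Of the activators, Gins1 (-0.53 ± 0.13) and Gins2 (-0.48 ± 0.12) fell, while Cdc45 had a difference of -0.31 ± 0.13 that did not pass (adjusted p = 0.0876). Both members from the enzyme that primes new strands fell. Pola1, the catalytic subunit of polymerase alpha, was at -0.53 ± 0.17 and Prim1, of the primase, at -0.24 ± 0.08. The Pola1 call was lost in 10 of 18 fits that each left out 1 array, with values from -0.69 to -0.38. The value of -0.38 was that without day 8 GFP-positive batch 2, where Pola1 read 89.0 against 217 in batch 1. Around the sliding clamp the picture was mixed. The clamp loader subunit Rfc3 (-0.40 ± 0.10) and the flap nuclease Fen1 (-0.42 ± 0.11) fell. A brighter Fen1 probe set, of a type left out because it can bind related transcripts, was at -0.03. Rfc4 (-0.24 ± 0.13) and the clamp itself, Pcna (-0.23 ± 0.10, adjusted p = 0.0836), did not pass. Cyclin E1, which opens S phase, fell (Ccne1, -0.52 ± 0.14), and Ccne2 was at -0.24 ± 0.15 and did not pass.

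On the probe sets used, ribonucleotide reductase showed the largest fall of any member. Its small subunit gene Rrm2 read 1754 and 2449 on day 5, 1654 and 2027 on day 6, 1034.5 and 1270.5 on day 7, and 805 and 943 on day 8 in GFP-positive cells. In GFP-negative cells it read 1874 and 2019, 1850.2 and 1639, 1456 and 2032, and 1044 and 1299 on the same days. The late GFP-positive arrays were all below the early ones, while in GFP-negative cells the batch 2 array of day 7 lay above all 4 early arrays. The difference over both fractions was -0.67 ± 0.10 (adjusted p = 9.18e-04), and the large subunit gene Rrm1 was at -0.34 ± 0.09 (adjusted p = 0.0105).

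Among the mitosis genes, 4 of 5 genes of the list of mitotic kinases and survivin fell. Cdk1, a kinase gene that stands in another list, did not pass. Plk1, the Polo kinase, was at -0.56 ± 0.11 (adjusted p = 0.00359), Ttk, the checkpoint kinase Mps1, at -0.41 ± 0.11, Birc5, the survivin subunit of the chromosomal passenger complex, at -0.38 ± 0.08, and Aurkb, the kinase of that complex, at -0.33 ± 0.11. Aurka, the centrosomal Aurora kinase, was at 0.08 ± 0.13, and at a difference below 0 with array medians made equal. Cenpf, a large protein of the outer kinetochore, was the mitosis gene with the largest fall, at -0.61 ± 0.09 (adjusted p = 8.58e-04). Bub1b, which encodes the checkpoint protein BubR1, fell by 0.42, and the kinesins Kif2c and Kif20a fell by 0.38 and 0.37.

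Other mitosis genes did not pass in this comparison. Of the cyclins and their kinase, Ccna2 was at -0.23 ± 0.11, Cdk1 at -0.20 ± 0.10 and Ccnb2 at -0.07 ± 0.09. Top2a, the topoisomerase that untangles sister chromosomes, was at -0.20 ± 0.09, a value of 0.17 when all its probe sets were averaged. That average gave equal weight to sets with mean signals of 1.85 and 119, at 0.09 and 0.62. Mki67, the proliferation marker Ki-67, was at 0.02 ± 0.10 and was below 0 with equal array medians, at -0.25. Its signals in GFP-negative cells were 2394 and 1721 on day 5 and 2351 and 3452 on day 8, so the batches ran in opposite directions there. None of the 3 cytokinesis genes Ect2, Anln and Racgap1 passed, with values between -0.22 and -0.05. Another Racgap1 probe set, with a mean signal of 313, was at -0.41 over the days. In cardiomyocytes against day 8 GFP-positive cells it was at -0.16, where the set used was at -1.08.

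Single steps between days did not give calls. In limma 0 of 47 members passed from day 5 to day 6, from day 6 to day 7 or from day 7 to day 8, where 0% of all genes fell at each step, and 1, 6 and 31 members had an unadjusted p under 0.05 at these steps. The medians were 0.05 for replication and 0.01 for mitosis genes at the first step, -0.21 and -0.10 at the second, and -0.47 and -0.31 at the last. All 47 members had a difference below 0 from day 7 to day 8, as did 5380 of 13379 tested genes.

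Taken fraction by fraction, more members passed in GFP-positive than in GFP-negative cells, and the difference between the fractions was then tested directly. In GFP-positive cells (4 arrays against 4) 17 of 22 replication genes and 12 of 25 mitosis genes fell, against 8.03% of all tested genes, and 0 members rose, against 11.3%. Their medians were -0.64 and -0.46, against 0.09 for all genes, and were near each other in the batches, at -0.61 and -0.63 for replication and -0.45 and -0.50 for mitosis genes. Rrm2 was at -0.96 ± 0.15, which is 1.94-fold lower, followed by Mcm2 (-0.82 ± 0.14), Mcm5 (-0.81 ± 0.18) and Gins1 (-0.80 ± 0.19). Pola1 was at -0.82 ± 0.24, but at -0.52 without day 8 GFP-positive batch 2, and its call was lost in 6 of 18 fits that left out 1 array. Among the mitosis genes Birc5 was at -0.78 ± 0.11, Plk1 at -0.76 ± 0.16 and Ttk at -0.67 ± 0.15.

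The number of these calls depended on single arrays. Leaving out 1 array gave between 7 and 32 falling members. The count of 29 was 7 without day 7 batch 1, 9 without day 6 batch 2, 16 without day 5 batch 2 or day 8 batch 2, and 18 without day 8 batch 1, all of GFP-positive cells. Of the genes just named, Mcm5, Gins1, Plk1 and Ttk lost their calls without day 7 batch 1 (-0.64, -0.63, -0.68 and -0.60), as did the first 3 without day 6 batch 2 and Gins1 without day 5 batch 2. With array medians made equal 21 replication and 23 mitosis genes fell. That scaling also lowered the median of all genes, and the share of all genes that fell under it is not given here. Every late GFP-positive array was below every early one for 10 of 22 replication and 8 of 25 mitosis genes, against 7.76% of all tested genes.

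In GFP-negative cells 1 replication gene and 1 mitosis gene fell, Mcm3 at -0.58 ± 0.11 (adjusted p = 0.00944) and Cenpf at -0.57 ± 0.13 (adjusted p = 0.0167), against 5.25% of all genes, and 0 rose, against 7.25%, with 9 of 47 at an unadjusted p under 0.05 in limma. In the fit with a batch term 7 fell, and the share of all genes in that fit is not given here. Every late GFP-negative array was below every early one for 1 replication and 1 mitosis gene, against 6.2% of all tested genes. Replication genes had a median of -0.25, from -0.47 in batch 1 and 0.00 in batch 2. Mitosis genes had a median of 0.01, from -0.11 in batch 1 and 0.15 in batch 2. The 2 batches thus differed in these cells by more than the median itself. The count was 1 without day 5, day 6 or day 8 GFP-negative batch 2.

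The plot of member medians by day shows both courses.

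**Figure D2:**
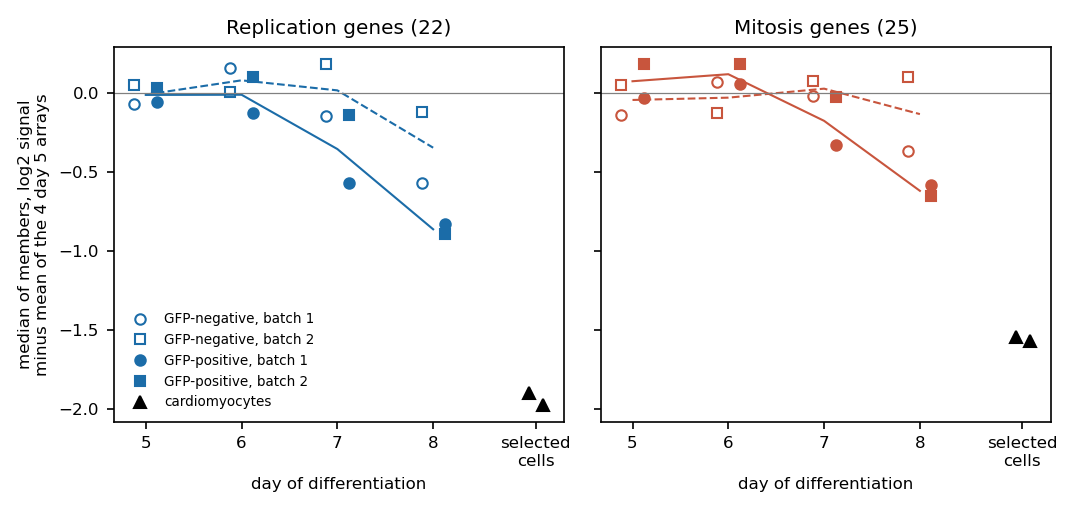
Median over the 22 replication genes (left) and the 25 mitosis genes (right) of the log2 signal minus the day 5 mean, 1 point per array against the day of differentiation, with lines through the mean of each pair (dashed for GFP-negative, solid for GFP-positive). On day 8 the GFP-positive arrays sit at -0.83 and -0.89 for replication and -0.58 and -0.65 for mitosis genes, the GFP-negative arrays at -0.57 and -0.12 and at -0.37 and 0.11, and the cardiomyocytes lie below all of them.

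Tested directly, the difference between the fractions in the change over days passed for 0 of 47 members in limma, where 0% of all genes were lower and 0.142% higher, and 18 members had an unadjusted p under 0.05. All 47 differences lay below 0, that is, toward a larger fall or smaller rise in GFP-positive cells, with a median of -0.44 (-0.26 in batch 1 and -0.64 in batch 2), against 0.04 for all genes, of which 6220 of 13379 were below 0. Birc5 was nearest to the threshold at -0.79 ± 0.15 (adjusted p = 0.0570, and adjusted p = 0.0369 in the fit with a batch term). Ccnb2, Cenpe and Racgap1 had differences above 0 in both batches of GFP-negative cells and below 0 in both batches of GFP-positive cells, but their interaction did not pass (adjusted p = 0.378, 0.396 and 0.354). The smallest interactions were those of Mcm7 (-0.04 ± 0.19) and Cenpf (-0.08 ± 0.18).

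The plot of the change in each fraction sets both values of a gene side by side.

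**Figure D3:**
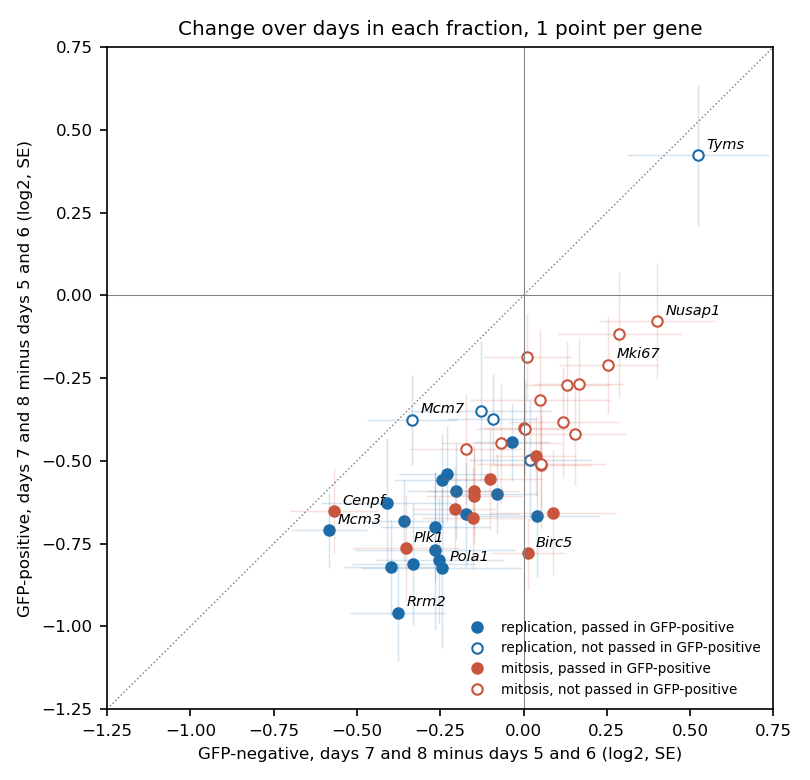
Difference between days 7 and 8 and days 5 and 6 in GFP-positive cells (vertical axis) against that in GFP-negative cells (horizontal axis), in log2 units with SE bars, 1 point per gene. Filled points passed the threshold in GFP-positive cells, and all 47 points lie below the dotted line of equal change.

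Birc5, with the lowest p in that test, shows the course in each fraction. It read 1405.5 and 1493 on day 5, 1479 and 1154 on day 6, 1448 and 1468 on day 7, and 1226 and 1425 on day 8 in GFP-negative cells. In GFP-positive cells it read 1369 and 1689.6 on day 5, 1315 and 1469.8 on day 6, 1045 and 1041 on day 7, and 655 and 713 on day 8. The fractions overlapped on days 5 and 6 and were apart on days 7 and 8. The day 8 difference was -0.94 ± 0.15 (adjusted p = 0.00988).

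Birc5 was also the 1 member that passed in the comparison of fractions on day 8, where 0.254% of all genes were lower and 2.32% higher, and 21 members had an unadjusted p under 0.05. In the fit with a batch term 3 members passed, and the share of all genes in that fit is not given here. Without the batch 1 array of day 8 GFP-negative cells 12 passed, and without any 1 of the other 3 day 8 arrays 0 passed. On day 8 the medians were -0.50 for replication and -0.47 for mitosis genes, and all 47 values lay below 0. The batches differed here too, with -0.26 and -0.17 in batch 1 and -0.67 and -0.72 in batch 2.

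On the earlier days the fractions were closer. The medians of replication genes were 0.01 on day 5, -0.09 on day 6 and -0.36 on day 7, and those of mitosis genes were 0.15, 0.21 and -0.20. In limma 0 members passed on day 5, 6 or 7 (0.0149%, 0% and 0% of all genes were lower), and 0, 1 and 7 had an unadjusted p under 0.05. On days 7 and 8, where day and batch pair the fractions 4 times, GFP-positive cells were the lower member of all 4 pairs for 18 of 22 replication and 12 of 25 mitosis genes, against 18.3% of all tested genes.

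Averaged over the 4 days (8 arrays against 8), 4 members were lower in GFP-positive cells, against 0.538% of all genes, and 0 were higher, against 2.14%. These were Rfc3 (-0.47 ± 0.10, adjusted p = 0.0292), Ccnb2 (-0.42 ± 0.09, adjusted p = 0.0299), Prim1 (-0.37 ± 0.08, adjusted p = 0.0307) and Birc5 (-0.32 ± 0.08, adjusted p = 0.0444). The calls were close to the threshold, and leaving out 1 array gave between 0 and 5 of them. It was 0 without GFP-negative day 6 batch 1, day 7 batch 2 or day 8 batch 2, and without GFP-positive day 6 batch 1, day 7 batch 1 or day 8 batch 2. It was 1 or 2 without GFP-negative day 5 (either batch) or day 7 batch 1, GFP-positive day 5 batch 1, day 7 batch 2 or day 8 batch 1, or either cardiomyocyte array.

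The selected cardiomyocytes had the lowest levels of both groups of genes. Against day 8 GFP-positive cells (2 arrays against 2), 16 of 22 replication and 19 of 25 mitosis genes were past the threshold on the low side, where 21.8% of all tested genes fell, and 0 rose, where 13.7% rose. The medians were -1.17 for replication and -1.15 for mitosis genes, against -0.16 for all genes. With array medians made equal the median of all genes moved to 0.33 and 18 members fell, so the count depends on the scaling. Relative to the median of all genes, the replication genes stood at -1.01 as deposited and -0.98 with equal medians, and the mitosis genes at -0.99 and -0.98. Equal medians multiply each array by a single factor, which this subtraction removes again. The closeness of these values is thus built in and says nothing about the scaling. None of the 35 calls changed sign under quantile normalization or equal medians.

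The licensing factor Cdc6 was the lowest. It read 427 and 393 on the day 8 GFP-positive arrays and 77.8 and 106 in cardiomyocytes, a difference of -2.09 ± 0.34 (adjusted p = 5.39e-04) or 4.27-fold. The clamp loader Rfc3 (-1.70 ± 0.21), Mcm6 (-1.68 ± 0.20), Mcm5 (-1.66 ± 0.26) and Prim1 (-1.61 ± 0.16) followed among the replication genes. On the probe sets used, all 6 MCM genes and all 4 members from the clamp, its loader and the flap nuclease fell. The brighter Fen1 probe set that was left out was at 0.10, against -1.21 on the set used. Pcna had the smallest fall of these genes on the sets used, at -0.55 ± 0.19 (adjusted p = 0.0422). That call was lost without either day 8 GFP-positive, cardiomyocyte or day 6 GFP-negative array, with values from -0.58 to -0.51. Pcna read 3930.1 and 3787 on day 8 in GFP-positive cells and 2581 and 2702 in cardiomyocytes, so the signal stayed far above the median of the array.

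Among the mitosis genes Aurkb was at -1.72 ± 0.22, Birc5 at -1.70 ± 0.15 and Ttk at -1.54 ± 0.22. Birc5 read 203 and 208 in cardiomyocytes, 3.25-fold below day 8 GFP-positive cells. Top2a (-1.43 ± 0.18), Nusap1, a microtubule bundling protein (-1.40 ± 0.25), and Mki67 (-1.33 ± 0.21) fell as well. Mki67 read 1963 and 1794 on day 8 in GFP-positive cells and 739 and 746 in cardiomyocytes, below its level on all 16 sorted arrays.

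The 12 members that did not pass were 6 replication and 6 mitosis genes. Rrm1 read 1306 and 1174 on day 8 in GFP-positive cells and 1531 and 1691 in cardiomyocytes (0.38 ± 0.17, adjusted p = 0.106), and Rrm2 was at 0.28 ± 0.21 (adjusted p = 0.323), and both rose when array medians were made equal. Ccne1 was at 0.29 ± 0.28 and Ccne2 at -0.37 ± 0.30, and neither passed. Gins2 was at -0.46 ± 0.23 and Pola1 at -0.53 ± 0.34. Among the mitosis genes Mad2l1, a checkpoint protein, was at -0.51 ± 0.28 and Ect2, which activates the cleavage furrow, at -0.48 ± 0.30. Anln, an actin-binding protein of the cleavage furrow, was at -0.16 ± 0.17, Kif20a at -0.45 ± 0.19, Cdk1 at -0.47 ± 0.20 and Plk1 at -0.61 ± 0.23 (adjusted p = 0.0509). With equal medians Cdk1 was at 0.06, and Gins2, Ccne2, Mad2l1, Kif20a, Ect2 and Anln also lay above 0.

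The plot of the cardiomyocyte difference shows each gene.

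**Figure D4:**
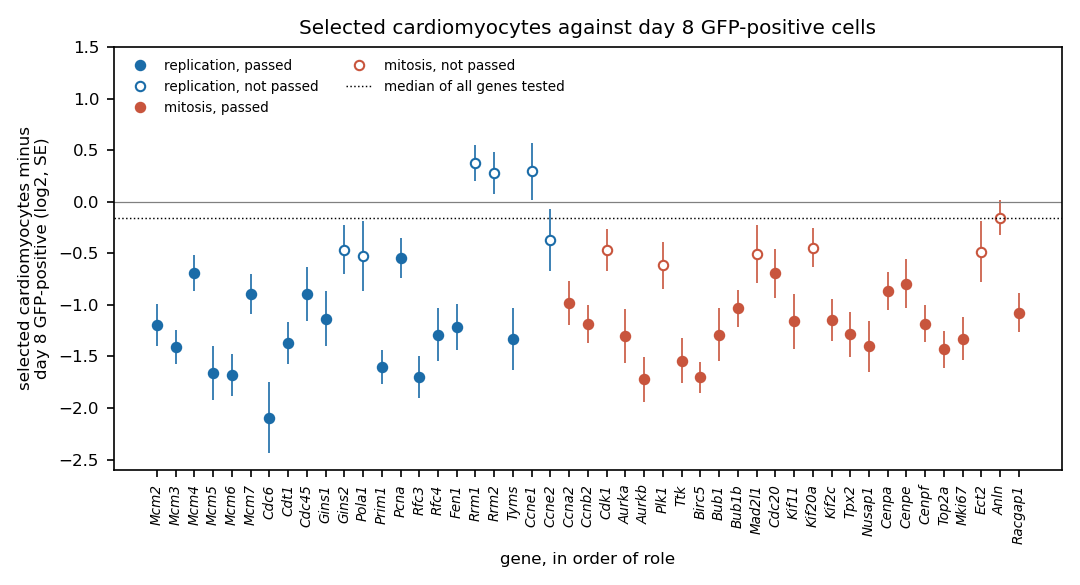
Difference in log2 signal between selected cardiomyocytes and day 8 GFP-positive cells for each of the 47 genes (points, with SE bars), in the order of their roles, with filled points past the threshold. Replication genes range from -2.09 (Cdc6) to 0.38 (Rrm1) and mitosis genes from -1.72 (Aurkb) to -0.16 (Anln), and the dotted line marks the median of all tested genes at -0.16.

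Against day 8 GFP-negative cells, 19 of 22 replication and 25 of 25 mitosis genes fell, where 21.4% of all genes fell, and 0 rose, where 15.8% rose, with medians of -1.68 and -1.57 against -0.12 for all genes. Both cardiomyocyte arrays were below both day 8 GFP-positive arrays for 18 replication and 24 mitosis genes, against 44.7% of all tested genes. They were below all 16 sorted arrays for 18 of 22 replication and 24 of 25 mitosis genes, against 20.3% of all tested genes. The comparisons with day 8 cells and the change over days share the day 8 arrays, so their values for a gene are not independent.

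The medians of mitosis and replication genes were also set against each other on each array. Relative to day 5, mitosis minus replication came to 0.25 and 0.24 on the day 8 GFP-positive arrays, 0.20 and 0.23 on the day 8 GFP-negative arrays and 0.36 and 0.40 in cardiomyocytes. On day 7 it was 0.24 and 0.12 in GFP-positive and 0.13 and -0.11 in GFP-negative cells. It was above 0 on the early GFP-positive arrays too, at 0.02 to 0.18, so late and early arrays overlapped. For the change over days in both fractions it came to 0.18, and between 0.15 and 0.22 with 1 array left out. It was 0.06 when all probe sets of a gene were averaged, with dim sets counted as much as bright ones. Of 59 other probe sets of members, 31 had a mean signal of at least 100. On 30 of these 31, the change over days had the same sign as on the set used. No test was made of the mitosis minus replication difference, since the members were chosen with results known.

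Within each group of genes the changes were set against the promoter words. Replication genes with an E2F word had a median of -0.65 in late against early GFP-positive cells (n = 8) and those without one -0.61 (n = 10). In the cardiomyocyte comparison these medians were -1.53 and -1.05, with ranges of -2.09 to -0.53 and -1.61 to 0.38 that overlapped. Mitosis genes with the CHR word had medians of -0.43 and -1.11 (n = 16) and those without it -0.45 and -1.29 (n = 5, Ccnb1 left out). These are descriptions with no test.

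Outside the list, the gene whose log2 signal followed the mean of the mitosis genes most closely over the 18 arrays was Lbr, the lamin B receptor of the nuclear envelope, with Pearson r = 0.992. Cdca8, the borealin subunit of the chromosomal passenger complex, had r = 0.990, Blm, the Bloom syndrome helicase, 0.988, Dbf4, the activator of the Cdc7 kinase, 0.987, and Cdca5, the cohesin regulator sororin, 0.985. Rad51ap1, Rad54l, Tacc3, Tkt and Dek completed the first 10, with r from 0.984 (Rad51ap1) to 0.980 (Dek). These coefficients describe points that share the low cardiomyocyte arrays. Over the 16 sorted arrays Lbr had r = 0.965 and Dek 0.887.

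Genes that regulate the cycle were read from lists of 112 further tested genes. In both fractions together 10 of them rose and 35 fell over the days, where 17.1% of all tested genes rose and 13.2% fell. Of 7 CDK inhibitor genes 5 rose. Cdkn1a, which encodes p21, read 468 and 225 on day 5 and 1242.5 and 1434 on day 8 in GFP-negative cells, and 608.5 and 178 on day 5 and 1512 and 2067 on day 8 in GFP-positive cells. All day 8 arrays were above all day 5 arrays, and the difference between late and early days was 1.74 ± 0.31 (adjusted p = 0.00185). Cdkn2b (p15) rose by 1.02 ± 0.20 and Cdkn2c (p18) by 0.74 ± 0.24.

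In a list of 11 genes of pocket proteins and E2F factors, pocket protein genes, whose products bind E2F factors, rose in 2 cases. Over all tested genes 17.1% rose, so 2 of 11 is near that share. Rb1, the retinoblastoma gene, rose by 1.85 ± 0.28 (adjusted p = 8.36e-04) and Rbl2, which encodes p130, by 1.02 ± 0.20. The Rbl2 probe set was dim, at 8.8 to 31.3 on early and 21.9 to 69.8 on late arrays, near the filter level of 22.5. Among the same 11 genes 3 fell, where 13.2% of all tested genes fell, with E2f7, a repressing E2F, furthest at -0.50 ± 0.11. Of 4 MYC factor genes Myc (-0.93 ± 0.20) and Mycn (-0.69 ± 0.13) fell. Foxm1, a transcription factor of mitosis genes, was at -0.08 and did not pass, and Mybl2, the B-Myb partner of MuvB, fell by 0.44.

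Of 20 replication enzymes outside the list 11 fell and 0 rose, where 13.2% of all tested genes fell and 17.1% rose. Dut, the enzyme that removes dUTP, was at -0.75 ± 0.14, Pold1, the catalytic subunit of polymerase delta, at -0.62 ± 0.10 and Chaf1b, a subunit of a chromatin assembly factor, at -0.61 ± 0.10. Of 10 genes of origin recognition and its kinase 5 fell, among them Mcm10 (-0.70 ± 0.17) and Orc1 (-0.67 ± 0.17). Kinetochore and spindle genes fell in 6 of 19 cases, the largest being Spc24 of the Ndc80 complex at -0.70 ± 0.11. Of 11 genes of the anaphase-promoting complex and its partner enzymes 1 fell, Cdc23 at -0.32 ± 0.08, which is not above the share of all genes. Among phosphatases and checkpoint kinases, Cdc25b rose by 1.59 ± 0.26 while Chek1 (-0.65 ± 0.13) and Cdc25a (-0.56 ± 0.12) fell.

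In cardiomyocytes 51 of the 112 genes were lower than on day 8 in GFP-positive cells and 5 were higher, where 21.8% of all tested genes were lower and 13.7% higher. The 5 were the inhibitors Cdkn2b, Cdkn2c and Cdkn2a and the G1 genes Cdk6 and Ccnd2. Cdkn2a was dim, at 20 and 29.5 on day 8 in GFP-positive cells and 69 and 97.5 in cardiomyocytes. Cdkn2b read 118 and 140.2 on day 8 in GFP-positive cells and 2155 and 2762 in cardiomyocytes, a difference of 4.18 ± 0.40 (adjusted p = 1.43e-05), with all 16 sorted arrays at or below 140.2. Cdk6, a kinase partner of D cyclins, rose by 1.75 ± 0.24 and Ccnd2, cyclin D2, by 1.21 ± 0.24, while Cdk2, the kinase of cyclins E and A, fell by 1.13. Cdkn1a was at 1.24 ± 0.62 and did not pass. The lowest were Cdc7, the kinase that fires origins (-2.28 ± 0.21), Uhrf1, which couples DNA methylation to replication (-2.10 ± 0.19), and Pola2, a subunit of polymerase alpha (-1.93 ± 0.19). Rb1 had a difference of -1.07 ± 0.55 that did not pass (adjusted p = 0.152).

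The plot of signals sets members beside regulators.

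**Figure D5:**
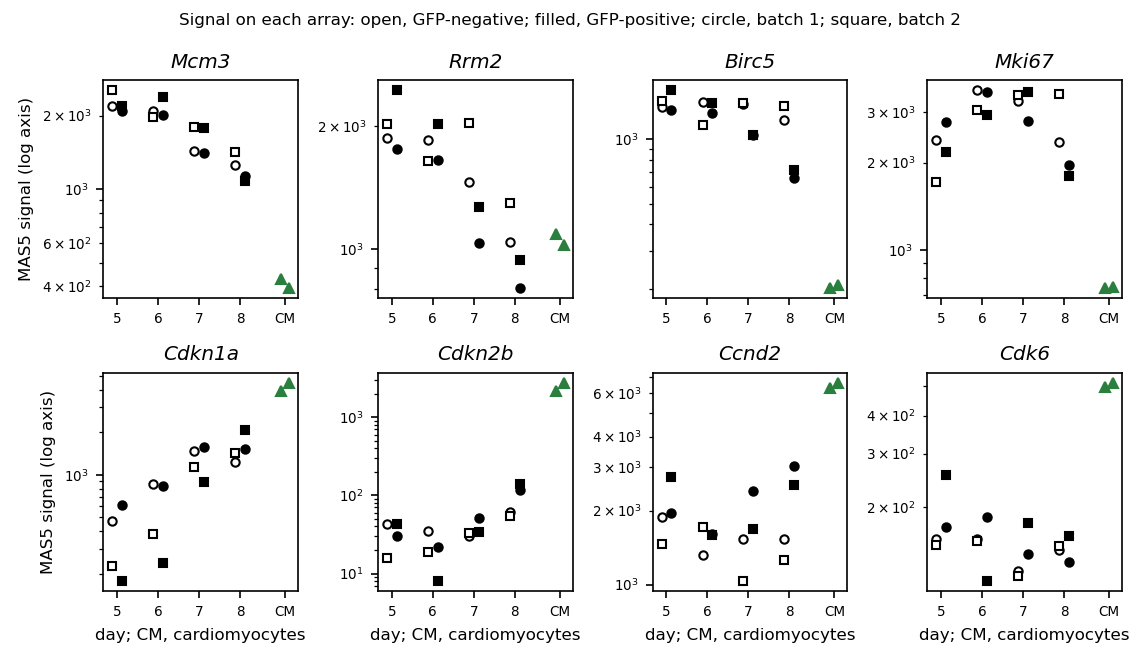
MAS5 signal (log axis) of 4 members (Mcm3, Rrm2, Birc5, Mki67; top row) and 4 regulators (Cdkn1a, Cdkn2b, Ccnd2, Cdk6; bottom row) on each array, against the day of differentiation, with the selected cardiomyocytes (CM, triangles) at the right. Mcm3, Birc5 and Mki67 are lowest in cardiomyocytes, Rrm2 is not, at 1090 and 1024 against 805 and 943 on day 8 in GFP-positive cells, and the regulators are highest there.

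Markers of other cell types moved with these comparisons, and their part in the results was not tested. In both fractions together, 17.1% of all tested genes rose over the days and 13.2% fell. Over the days 7 of 15 pluripotency genes fell, and the summed signal of the list went from between 5833 and 16541 in day 5 GFP-negative cells, and between 3368 and 8111 in day 5 GFP-positive cells, to between 1621 and 2071 on all day 8 arrays. Heart muscle genes rose in 10 of 15 cases, with sums of 33275 to 34138 in day 8 GFP-positive cells and 5306 to 10068 in day 8 GFP-negative cells. Of 10 genes of immediate early and dissociation stress 7 rose, and day 8 sums were 8687 to 8874 in GFP-positive and 7280.1 to 7607 in GFP-negative cells against 3506 to 5008 on day 5. Blood genes rose in 4 of 7 cases, with sums going from between 219 and 5004.5 on day 5 to between 14722 and 17499.5 on day 8 in GFP-negative cells, and from between 492 and 4911 to between 10835 and 12103 in GFP-positive cells. Fibroblast and feeder genes rose in 7 of 9 cases and fell in 1, with sums from between 543 and 1259 to between 8697 and 20852 in GFP-negative cells, and from between 551 and 1525 to between 3064 and 3072 in GFP-positive cells. These lists thus differed between the fractions as well as between days. Visceral endoderm genes rose in 4 of 9 tested cases, with sums in GFP-positive cells going from between 172 and 3911 to between 12927 and 14712. Endothelial genes summed to 7946 to 8834 in day 8 GFP-positive cells and 1192 to 2080.4 in day 8 GFP-negative cells.

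Against day 8 GFP-positive cells, the cardiomyocytes had 12 of 12 endothelial genes lower (sums of 359 to 365) 8 of 9 tested visceral endoderm genes lower (sums of 345 to 428) and 5 of 7 blood genes lower (sums of 339 to 412). Fibroblast and feeder genes were higher in 6 of 9 cases, with sums of 27166 to 27445 against 3064 to 3072. Heart muscle genes summed to 94168 and 94190 in cardiomyocytes, which were selected through the promoter of a heart muscle gene. Of these genes 2 of 15 were past the threshold above day 8 GFP-positive cells. In this comparison 21.8% of all tested genes were lower and 13.7% higher, so the 2 of 15 is near the share of all genes. No marker had a signal of 0 on any array.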

How the data were processed

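The 18 arrays are Affymetrix arrays of 9 groups of 2. RNA was amplified in 2 rounds before hybridisation, per the labels' protocols, which can reduce the signal far from the 3' end. The authors deposited MAS5 signal intensities, computed with GCOS 1.4 per the submitters' processing notes, and every array had a trimmed mean of 150.0. Of 45101 probe sets, 34945 had 1 gene symbol, 932 had several, 9211 had none and 64 were controls. The gene's brightest probe set was used, leaving out x-type sets that can bind related transcripts, which were brighter for 7 members.

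Genes at 22.5 or more on at least 2 arrays were fitted as log2(signal + 6.8) with limma 3.58.1 in R 4.3.3 (9 group means, 9 residual degrees of freedom, variance trend), and p-values were adjusted by Benjamini-Hochberg over 13379 genes for each of 14 comparisons. The script was tested on simulated data. Figures used Python 3.11.15 and matplotlib 3.10.9. Deviations of arrays of 1 batch from their group means correlated at -0.18 to 0.65 over 28 pairs, 13 of them over 0.1. Batch is a label of the sorted arrays, and a fit with it as a covariate (8 residual degrees of freedom) was an alternative, beside other offsets, filters, scalings, probe set choices and leaving out each array. All members could be named, the largest changes per comparison and per pathway list first. The members and lists were chosen with earlier results of these data known. Array number limits the precision.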

Additional observations from a re-analysis of the deposited data

How the results depend on the processing

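The counts are of members past the threshold on the low side. The share of all tested genes that fell under each alternative is not given, so these counts have no background beside them. With array medians made equal, 42 fell over the days in both fractions and 44 in GFP-positive cells (all-gene medians of -0.20 and -0.30), 1 was lower in GFP-positive cells over all days, and 18 fell in cardiomyocytes against day 8 GFP-positive cells. The interaction gave 1 with offsets of 16 or 50, quantile normalization, the mean of all probe sets or the replicate block. Day 8 between the fractions gave 3 with an offset of 50, quantile normalization or the replicate block, and the block gave 7 for GFP-negative cells over the days. The comparison over all days gave 2 with the mean of all probe sets and 1 without the variance trend. The mean of all probe sets, which counts dim sets as much as bright ones, made the mitosis minus replication difference 0.062. With 1 array left out the counts ran from 21 to 33 over the days in both fractions, 7 to 32 in GFP-positive and 1 to 3 in GFP-negative cells, 0 to 1 for the interaction, 0 to 5 over all days, 0 to 12 on day 8, 29 to 38 in cardiomyocytes against day 8 GFP-positive and 36 to 44 against GFP-negative cells.

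With equal medians the sign turned for 3 members over the days in both fractions and for 7 in cardiomyocytes against day 8 GFP-positive cells, none of them called. Among the genes followed through every alternative, 3 turned. Mki67 over the days was -0.25 with equal medians and ran from -0.046 to 0.092 with 1 array left out. Cdk1 in cardiomyocytes was 0.064 with equal medians, and over all days it ran from -0.15 to 0.026 with 1 array left out. Top2a with the mean of all probe sets was 0.17 in both fractions and 0.10 in GFP-positive cells, where it had passed. That mean gave the bright set used the same weight as sets with mean signals of 1.85 and 119. In both fractions these sets were at 0.09 and 0.62. Why the probe sets differ, and the cause of the other turns, was not tested.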
